A study of Canis lupus familiaris with 15 samples.

Results

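The 10 genes described here, PECAM1, CDH5, KDR, FLT1, TEK, TIE1, VWF, EMCN, CLDN5 and ESAM, are markers of endothelial cells, the cells that line blood vessels. They were measured in primary appendicular osteosarcomas of 15 pet dogs, 1 array per dog. The genes were chosen by name, and every probeset of the Canine 2.0 array that carries only that gene's symbol was taken, which gave 21 of the 42860 probesets that are not controls and 10 of the 15115 genes with such a probeset. Of the dogs, 8 had a disease free interval (DFI) under 100 days after amputation and 7 had a DFI over 300 days. All tumors were taken at amputation before any drug was given, and all dogs went on to doxorubicin, a platinum drug or both. Age averaged 7.80 ± 2.28 years in the DFI < 100 cohort and 10.5 ± 2.27 years in the DFI > 300 cohort (SD, n = 8 and 7). The DFI < 100 cohort held 3 Greyhounds, a Doberman, a Golden Ret., a Labrador Ret., a Mix and a Rottweiler. The DFI > 300 cohort held 4 Mix dogs, a Golden Ret., a Greyhound and a Rottweiler. Among the DFI < 100 tumors, 3 were of the giant cell subtype (dogs 1, 4 and 6) and 5 were osteoblastic. Among the DFI > 300 tumors, 6 were osteoblastic and 1 was poorly differentiated (dog 4). A tumor is a mixture of malignant, vascular, immune and bone cells, so fewer cells of a type and less RNA per cell cannot be told apart in these values.

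Blood vessels grow into a tumor largely under the control of vascular endothelial growth factors (VEGF), which bind the receptor tyrosine kinases KDR (VEGFR2) and FLT1 (VEGFR1) on endothelial cells, and of angiopoietins, which bind TEK (TIE2), a partner of the related receptor TIE1. Neighboring endothelial cells are held together by PECAM1, by the adherens junction cadherin CDH5, by the tight junction protein CLDN5 and by the adhesion molecule ESAM. VWF, the clotting factor stored by endothelial cells and platelets, and EMCN, a sialomucin of veins and capillaries, are widely used to outline vessels. In bone, vessels and bone formation are closely coupled, and in mice endomucin marks a class of capillaries near growing bone.

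The arrays were alike in overall signal, with a median PLIER signal of 46.6 to 54.7 and correlations between arrays of 0.816 to 0.899 over all probesets. The log2 ratio of 3' to 5' control probesets, a measure of RNA integrity, was 2.08 ± 0.33 in DFI < 100 tumors and 2.05 ± 0.33 in DFI > 300 tumors. Arrays were run in more than 1 batch, but no source used here says which array was in which, so batch and cohort cannot be told apart. A reporter level was set at a log2 signal of 6.79 (a signal of 110.7), the 95th percentile of the 64 reporter control probesets, which stand for reporter sequences. Of all genes, 6448 (42.7%) had a brightest probeset with a mean above it. Among the endothelial genes, 6 did: PECAM1, KDR, FLT1, TIE1, VWF and EMCN. The brightest probesets of CDH5, TEK, CLDN5 and ESAM had means under it. These 4 genes that define the lineage were thus measured close to background, and values given for them carry that limit. FLT1 (mean 6.97) and TIE1 (mean 6.90) were only slightly above the reporter level, with 8 and 9 tumors over it. Their medians in DFI < 100 tumors, 6.76 and 6.70, were under it, so many of their values carry the same limit. Values below are log2 signals of the brightest probeset of a gene unless stated.

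All 6 genes above the reporter level varied widely among the tumors, and the same dogs stood at the ends. The sialomucin EMCN ranged from 7.38 in DFI < 100 dog 7 to 10.59 in DFI < 100 dog 6, with a median of 8.61. The junction protein PECAM1 ranged from 7.37 in DFI > 300 dog 7 to 11.49 in DFI < 100 dog 6, with a median of 9.19. The VEGF receptor KDR ranged from 8.52 to 11.15 in those same dogs, with a median of 9.27. DFI < 100 dog 6, a Doberman with a giant cell tumor of the humerus, had the highest value of all 15 tumors in each of these 6 genes, in 8 of the 10 genes and in 17 of the 21 probesets. FLT1 reached 8.80, TIE1 8.77 and VWF 9.34 in that tumor, and TEK 7.24 and ESAM 6.86 were the highest for the dimmer genes. The exceptions were CDH5 (highest in DFI > 300 dog 5, at 6.56) and CLDN5 (highest in DFI > 300 dog 2, at 6.86), both under or near the reporter level. The mean of TIE1 was above the reporter level only with DFI < 100 dog 6 counted. Its place among the 6 genes, and so in their scaled mean, depended on the tumor where it was highest. DFI > 300 dog 7, a Greyhound with an osteoblastic tumor of the humerus, had the lowest value in 5 genes, PECAM1, KDR, TIE1, CDH5 and ESAM, and was among the lowest 3 tumors in all 10. DFI < 100 dog 7, an osteoblastic humerus tumor, was lowest for FLT1 (5.32), VWF (6.03) and EMCN (7.38). When the 6 genes were each centered and scaled to an SD of 1 over the 15 tumors and averaged, DFI < 100 dog 6 stood at 2.20, the next tumor at 0.69 (DFI > 300 dog 3), and the lowest tumors at -1.26 (DFI < 100 dog 7) and -1.45 (DFI > 300 dog 7). The other 11 tumors lay between -0.85 and 0.58.

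**Figure D1:**
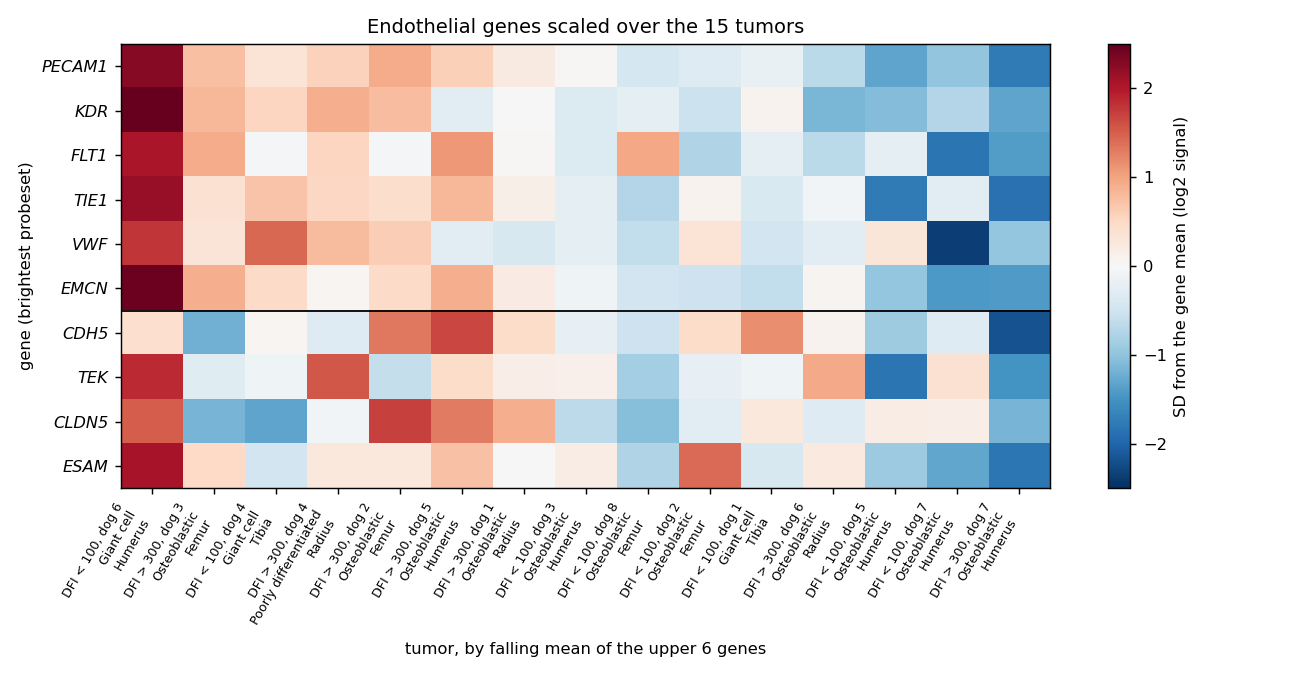
Each endothelial gene (rows, brightest probeset) in each of the 15 tumors (columns), as SD from the gene's mean log2 signal, with cohort, subtype and bone under each column. Columns run by falling mean of the 6 genes above the reporter level (above the black line), from DFI < 100 dog 6 at 2.20 to DFI > 300 dog 7 at -1.45, and both cohorts are found at the high and the low end.

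The cohort comparison asked whether primary tumors of dogs that relapsed early differ from those of dogs that relapsed late. No difference between the cohorts beyond the spread between dogs was found in the endothelial genes. Of the 10 genes, 3 averaged higher and 7 lower in the DFI < 100 cohort, with a median difference of -0.09 on the log2 scale, against 0.01 over all probesets. None of the 21 probesets had an adjusted p under 0.05 in limma, and none an unadjusted p under 0.05, where the shares over all 42860 probesets were 0% and 3.68%. The adjusted p was at least 0.999 for each of them.

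Among the receptors, KDR had a lowest, median and highest value of 8.68, 9.23 and 11.15 in DFI < 100 tumors, against 8.52, 9.43 and 10.05 in DFI > 300 tumors. The difference in means was 0.04 (SE 0.35, 95% interval -0.71 to 0.80). FLT1 had 5.32, 6.76 and 8.80 in DFI < 100 tumors and 5.72, 7.00 and 7.95 in DFI > 300 tumors, and TIE1 5.38, 6.70 and 8.77 in DFI < 100 tumors and 5.30, 7.22 and 7.61 in DFI > 300 tumors. For both receptors the DFI < 100 values spanned the whole range of the DFI > 300 values or nearly so, and the differences were -0.11 (SE 0.46) and -0.09 (SE 0.44). The angiopoietin receptor TEK averaged 6.03 ± 0.65 in DFI < 100 tumors and 6.15 ± 0.63 in DFI > 300 tumors (SD, n = 8 and 7), both under the reporter level.

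Of the junction and vessel wall genes, PECAM1 had a lowest, median and highest value of 7.82, 8.91 and 11.49 in DFI < 100 tumors, against 7.37, 9.75 and 10.11 in DFI > 300 tumors. Its mean difference was -0.17 (SE 0.52, 95% interval -1.27 to 0.93), and its other 3 probesets gave -0.16 to -0.19. EMCN had 7.38, 8.15 and 10.59 in DFI < 100 tumors and 7.39, 8.73 and 9.32 in DFI > 300 tumors. Its difference of -0.26 (SE 0.42, 95% interval -1.15 to 0.62) was the largest among the 10 genes and smaller than its SE, as was every other difference among the brightest probesets. VWF had 6.03, 7.94 and 9.34 in DFI < 100 tumors and 7.15, 7.69 and 8.55 in DFI > 300 tumors, with a difference of 0.04 (SE 0.41). CDH5, CLDN5 and ESAM differed by 0.02 (SE 0.21), -0.09 (SE 0.16) and -0.04 (SE 0.42). The intervals for PECAM1, FLT1, TIE1 and EMCN still include changes of more than a factor of 2 downward, so the number of dogs, and not a tight match, sets how small a difference could be seen. Without DFI < 100 dog 6, all 10 genes averaged lower in the DFI < 100 cohort, with a median of -0.29, and without DFI > 300 dog 7 all 10 did as well, with a median of -0.29. Among osteoblastic tumors alone, 0 of the 10 genes averaged higher in the DFI < 100 cohort and the median was -0.27. By contrast, 7 of the 10 averaged higher without DFI < 100 dog 5, 5 without DFI < 100 dog 7, and 6 without DFI > 300 dog 5 or with age as a covariate. No adjusted p passed the threshold in these fits.

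**Figure D2:**
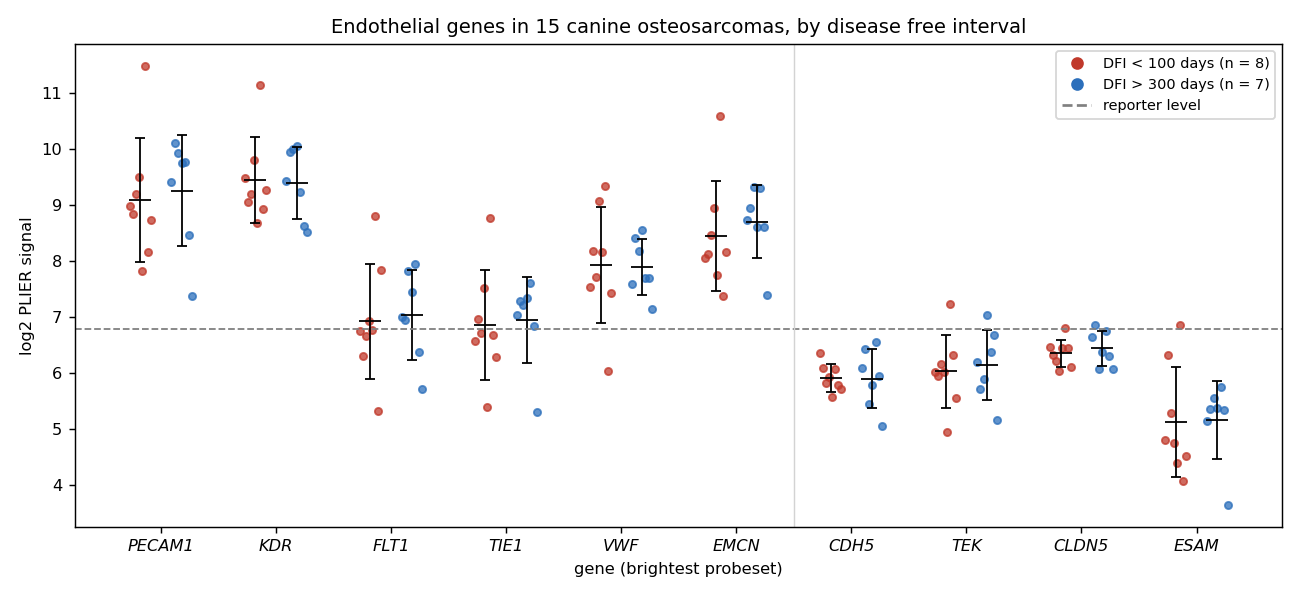
Log2 PLIER signal of the brightest probeset of each gene (x axis) in 8 DFI < 100 tumors (left of each pair, red) and 7 DFI > 300 tumors (right, blue). Bars are mean ± SD and the dashed line is the reporter level of 6.79, and the 2 cohorts overlap over most of their range in every gene, with DFI < 100 dog 6 as the highest point of the 6 genes left of the vertical line.

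Within the DFI < 100 cohort, the 3 giant cell tumors could be set against the 5 osteoblastic tumors. All 10 endothelial genes averaged higher in the giant cell tumors, by a median of 1.02 on the log2 scale, against a median of -0.05 over all probesets and 0.003 over the 6448 genes above the reporter level. Of the 21 probesets, 20 averaged higher, against 44.8% of all 42860 probesets. An unadjusted p under 0.05 in limma was found for 5 of the 21, where 6.90% of all probesets had one in either direction. These 5 belonged to PECAM1, KDR and CLDN5 alone, and the probesets of PECAM1 ran in parallel, so they are not separate results. By brightest probeset, 2 of the 10 genes had such a p. None of the 21 passed after adjustment (smallest adjusted p = 0.652 in limma), while 4 probesets of the whole array (0.00933%) did.

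Within this cohort, KDR was the only gene of the 10 whose groups did not overlap, and how many genes of the whole array separated in this way was not counted. It had 9.49, 9.80 and 11.15 in the giant cell tumors (dogs 1, 4 and 6). The osteoblastic tumors of the cohort had 8.68, 8.93, 9.06, 9.20 and 9.27. The difference was 1.12 (SE 0.38, 2.17-fold, unadjusted p = 0.0179, adjusted p = 0.652 in limma). Outside the cohort, the 6 osteoblastic DFI > 300 tumors ranged from 8.52 to 9.996 in KDR, a range that includes giant cell dogs 1 and 4. PECAM1 had 8.98, 9.51 and 11.49 in the giant cell tumors and 7.82, 8.16, 8.73, 8.85 and 9.19 in the osteoblastic tumors, a difference of 1.44 (SE 0.58, 2.72-fold, unadjusted p = 0.0377, adjusted p = 0.707 in limma). Giant cell dog 1 lay within the osteoblastic range for PECAM1, and its other probesets differed by 1.29 to 1.60. EMCN had 8.06, 8.96 and 10.59 in the giant cell tumors and 7.38, 7.76, 8.13, 8.17 and 8.47 in the osteoblastic tumors, a difference of 1.22 (SE 0.54, adjusted p = 0.722 in limma). TIE1 had 6.57, 7.51 and 8.77 in the giant cell tumors and 5.38, 6.28, 6.68, 6.71 and 6.97 in the osteoblastic tumors, a difference of 1.21 (SE 0.54). In EMCN and TIE1, as in PECAM1, dogs 4 and 6 lay above every osteoblastic tumor of the cohort and dog 1 did not.

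VWF had 7.54, 9.07 and 9.34 in the giant cell tumors and 6.03, 7.42, 7.72, 8.16 and 8.18 in the osteoblastic tumors, a difference of 1.15 (SE 0.60). FLT1 had 6.75, 6.93 and 8.80 in the giant cell tumors and 5.32, 6.29, 6.66, 6.76 and 7.85 in the osteoblastic tumors, a difference of 0.92 (SE 0.64). Only dog 6 was above all osteoblastic tumors in FLT1. The 4 dim genes differed by 0.64 (TEK, SE 0.41), 0.55 (ESAM, SE 0.66), 0.33 (CDH5, SE 0.20) and 0.13 (CLDN5, SE 0.22).

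A large share of this difference lay in DFI < 100 dog 6. Without that tumor, the median over the 10 genes was 0.44 and 8 of the 10 averaged higher in the giant cell tumors, now 2 against 5. The differences were then 0.69 for PECAM1 (SE 0.41), 0.62 for KDR (SE 0.25), 0.52 for EMCN (SE 0.38), 0.64 for TIE1 (SE 0.48), 0.80 for VWF (SE 0.68) and 0.26 for FLT1 (SE 0.60). ESAM (-0.14, SE 0.60) and CLDN5 (-0.06, SE 0.24) turned to lower values. KDR had an unadjusted p of 0.0456 in that fit and 2 of the 21 probesets were under 0.05, where 4.83% of the array was, with no adjusted p in limma under 0.991. The 3 giant cell tumors all came from the early relapse cohort, so subtype and cohort cannot be told apart outside it.

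**Figure D3:**
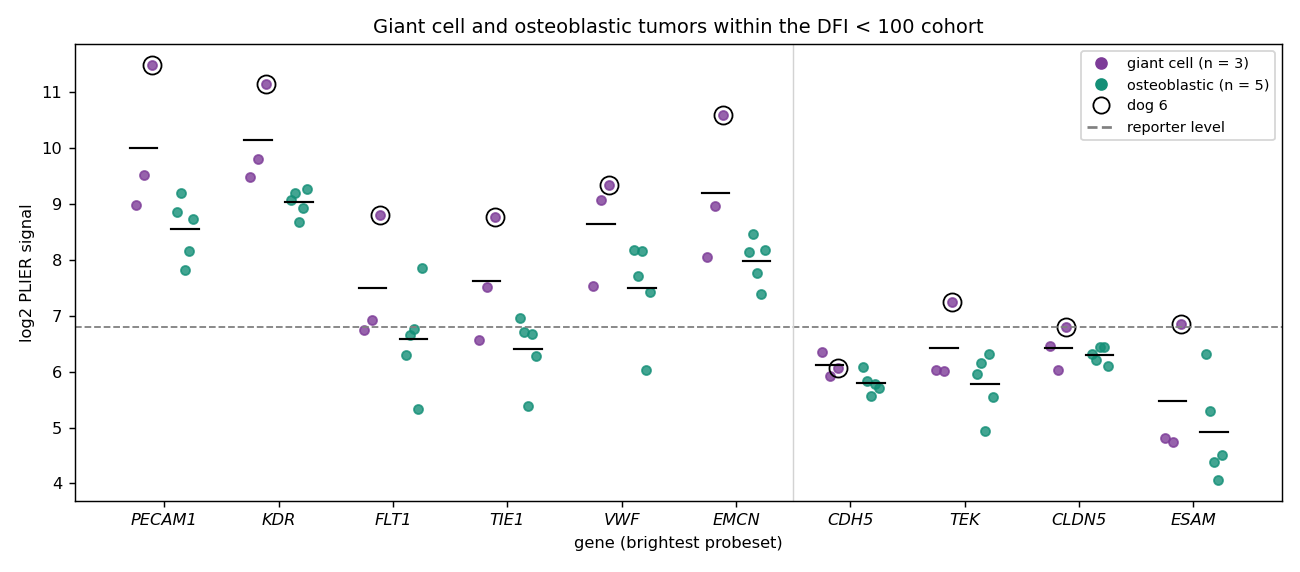
Log2 PLIER signal of each gene within the DFI < 100 cohort, in 3 giant cell tumors (left of each pair, purple) and 5 osteoblastic tumors (right, green), with a line at each mean and a ring around dog 6. KDR alone shows no overlap, from 9.49 in the lowest giant cell tumor against 9.27 in the highest osteoblastic tumor of this cohort. The share of all genes of the array without overlap was not counted. Dog 6 lies far above the other giant cell tumors in PECAM1, KDR, FLT1, TIE1 and EMCN.

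Markers of other cell types also moved with the giant cell subtype. Of the 3 osteoclast markers measured, 2 averaged higher and had an unadjusted p under 0.05: the bone resorbing enzymes ACP5, by 3.24 (SE 1.37), and CTSK, by 1.28 (SE 0.55). The calcitonin receptor CALCR had a mean of 2.29 over the tumors, far under the reporter level. The summed signal of the 3 markers was 17879 to 20467 in the giant cell tumors, against 1594 to 12202 in the osteoblastic tumors of the cohort. Of the 5 leukocyte markers, 4 averaged higher in the giant cell tumors, led by the macrophage and osteoclast lysosomal protein CD68 (by 3.23, SE 0.90). CD68 alone had a signal of 2475 to 3607 in the giant cell tumors and 49.7 to 1246 in the osteoblastic tumors of the cohort, with no overlap. The DFI > 300 tumors, none of them giant cell, reached 2415 in CD68 and 16329 in the sum of the osteoclast markers. The share of all genes without overlap was not counted. The summed signal of the other 4 leukocyte markers, among them PTPRC and AIF1, overlapped, at 270.8 to 602.3 in the giant cell tumors and 217.2 to 626.2 in the osteoblastic tumors. The 7 pericyte markers had a summed signal of 642.1 to 1760 in the giant cell tumors and 542.3 to 1183 in the osteoblastic tumors, and 6 of the 7 averaged higher. The 4 osteoblast markers overlapped, at 1225 to 18761 in the giant cell tumors and 1796 to 16822 in the osteoblastic tumors, while RUNX2, the transcription factor that commits cells to bone formation, was lower in the giant cell tumors by -1.34 (SE 0.38). No gene named in these lists passed after adjustment (adjusted p at least 0.595 in limma). The part of these cell types in the endothelial differences was not tested.

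The tumors came from 6 humeri, 3 radii, 4 femora and 2 tibiae, so that 9 lay in a forelimb and 6 in a hindlimb, and 5 in the lower and 10 in the upper segment of the limb. The endothelial genes did not separate by site. With cohort in the model, 2 of the 10 genes averaged higher in forelimb tumors and 8 lower, with a median of -0.14 against 0.01 over all probesets. All 6 genes above the reporter level were lower in forelimb tumors, by -0.12 to -0.37. The largest, VWF, averaged 7.77 ± 0.91 in forelimb tumors and 8.13 ± 0.60 in hindlimb tumors (SD, n = 9 and 6), a difference of -0.37 (SE 0.43, adjusted p = 0.965 in limma). TEK ran the other way, at 6.23 ± 0.77 in forelimb tumors and 5.86 ± 0.19 in hindlimb tumors (0.36, SE 0.33), and its hindlimb values were within a narrow range of 5.55 to 6.02. None of the 21 probesets passed with an adjusted p, where 0% of the array did, and none had an unadjusted p under 0.05, where 4.37% of the array did. Without DFI < 100 dog 6 the median was -0.52 and 1 of the 21 probesets had an unadjusted p under 0.05, where 5.68% of the array did. Between lower and upper segment, 6 of 10 genes averaged higher in the lower segment, with a median of 0.07, and no probeset passed (0% of the array adjusted, 2.90% unadjusted). Both lower segment tumors of the DFI < 100 cohort, the tibiae, were giant cell tumors, and all 5 of its osteoblastic tumors lay in the upper segment, so that within that cohort only DFI < 100 dog 6, a giant cell tumor of the upper segment, kept segment and subtype from coinciding. Between the segments TEK differed most, by 0.45 (SE 0.34), and FLT1 had the lowest difference, at -0.14 (SE 0.51).

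The humerus had a wider spread than the distance between the medians of the bones. PECAM1 ran from 7.37 to 11.49 in the 6 humeri, with a median of 8.68, and had medians of 9.41 in the radii, 9.39 in the femora and 9.24 in the tibiae. The humerus held both ends of the order of tumors, DFI < 100 dog 6 and DFI > 300 dog 7, and EMCN in the 3 radii lay within 8.61 to 8.73. Whether the cohort difference depended on the limb was tested with an interaction term. The cohort difference in forelimb tumors minus that in hindlimb tumors was positive for 8 of the 10 genes, with a median of 0.44 and SEs of 0.35 to 1.10, and no probeset of the 21 had an unadjusted p under 0.05 (4.52% of the array) or an adjusted p under 0.05 (0.00467%).

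**Figure D4:**
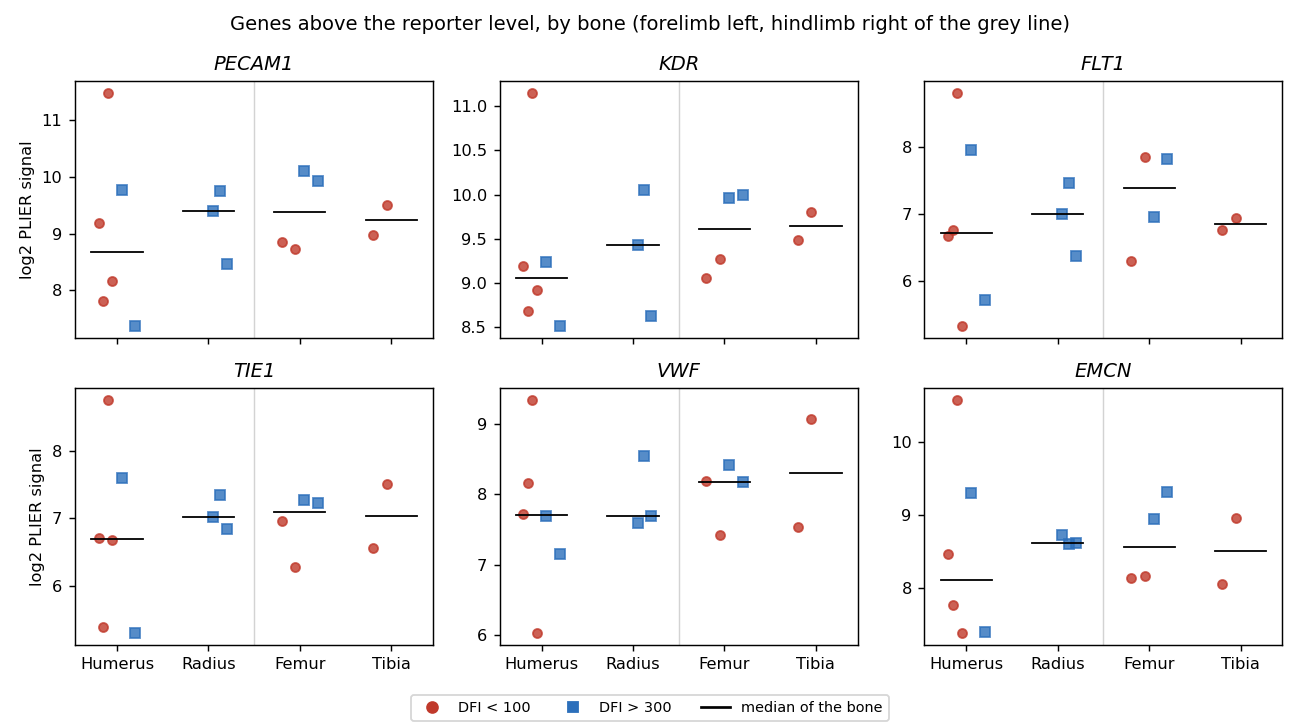
Log2 PLIER signal of the 6 genes above the reporter level by bone (x axis), with DFI < 100 tumors as red circles, DFI > 300 tumors as blue squares and a black line at the median of each bone. The humerus shows the widest spread in every panel, from 7.37 to 11.49 for PECAM1, and covers the range of the other bones in each.

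The genes varied together from tumor to tumor. Over the 45 pairs of the 10 genes, Pearson's r had a median of 0.63 (0.15 to 0.93) and none was negative, and 28 pairs had a permutation p under 0.05 after adjustment over the 45 pairs (2-sided, 100000 resamples). Spearman's rho had a median of 0.51, with 20 pairs under 0.05. Among the 6 genes above the reporter level, the 15 pairs had a median r of 0.79 (0.57 to 0.93) and a median rho of 0.72, and all 15 passed by r and 14 by rho. TIE1 was among these 6 only with DFI < 100 dog 6 counted. As a scale, r had a median of 0.01 over all pairs of the 6448 genes above the reporter level and a 95th percentile of 0.51, and 2.85% of those pairs exceeded 0.57, the lowest r of the 15, while 0.127% exceeded their median.

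The highest correlations were those of PECAM1, with r = 0.93 and rho = 0.88 to each of EMCN, KDR and TIE1 (n = 15, adjusted permutation p = 0.0003, 0.000225 and 0.000225 by r and 0.00105 by rho). PECAM1 and FLT1 had r = 0.79 and rho = 0.74 (adjusted permutation p = 0.00191 and 0.0129). The VEGF receptors KDR and FLT1 had r = 0.75 and rho = 0.72 (adjusted permutation p = 0.00408 and 0.0143). The angiopoietin receptor TEK followed its partner TIE1, with r = 0.81 and rho = 0.60 (adjusted permutation p = 0.00191 and 0.0431). VWF was the loosest of the 6, with r of 0.57 to 0.73 to the other 5, and its rho to FLT1 was 0.44 (adjusted permutation p = 0.167). ESAM, although dim, had r = 0.80 to each of PECAM1, TIE1 and EMCN. CDH5 and CLDN5 had r = 0.71 to each other, the highest value for either gene, but 0.30 within the DFI < 100 cohort against 0.93 within the DFI > 300 cohort. The lowest of all pairs was VWF with CLDN5 (r = 0.15).

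The relations among the 6 genes were present in both cohorts, and part of their size came from the tumors at the ends. For the 15 pairs, the median r was 0.80 within the 8 DFI < 100 tumors and 0.87 within the 7 DFI > 300 tumors. With the 2 tumors farthest from the median of the first gene left out of each pair, it was 0.60 for the 15 pairs and 0.33 for the 45. Without DFI < 100 dog 6 it was 0.68 for the 15 pairs, and 14 of the 45 pairs passed. Without DFI > 300 dog 7, 17 of the 45 passed. Without both dogs, PECAM1 kept r = 0.86 to KDR, 0.85 to EMCN and 0.82 to TIE1, and the 15 pairs had a median of 0.59, but FLT1 with TIE1 had r = 0.27, TIE1 with VWF 0.31, and only 4 of the 45 pairs passed. Several pairs with a dim gene also kept a positive r without both, with 0.64 for TEK and TIE1, 0.58 for EMCN and ESAM, 0.54 for PECAM1 and ESAM, and 0.72 for CDH5 and CLDN5. With both ends of the range left out, the 13 tumors covered a narrower range of levels than the 15.

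**Figure D5:**
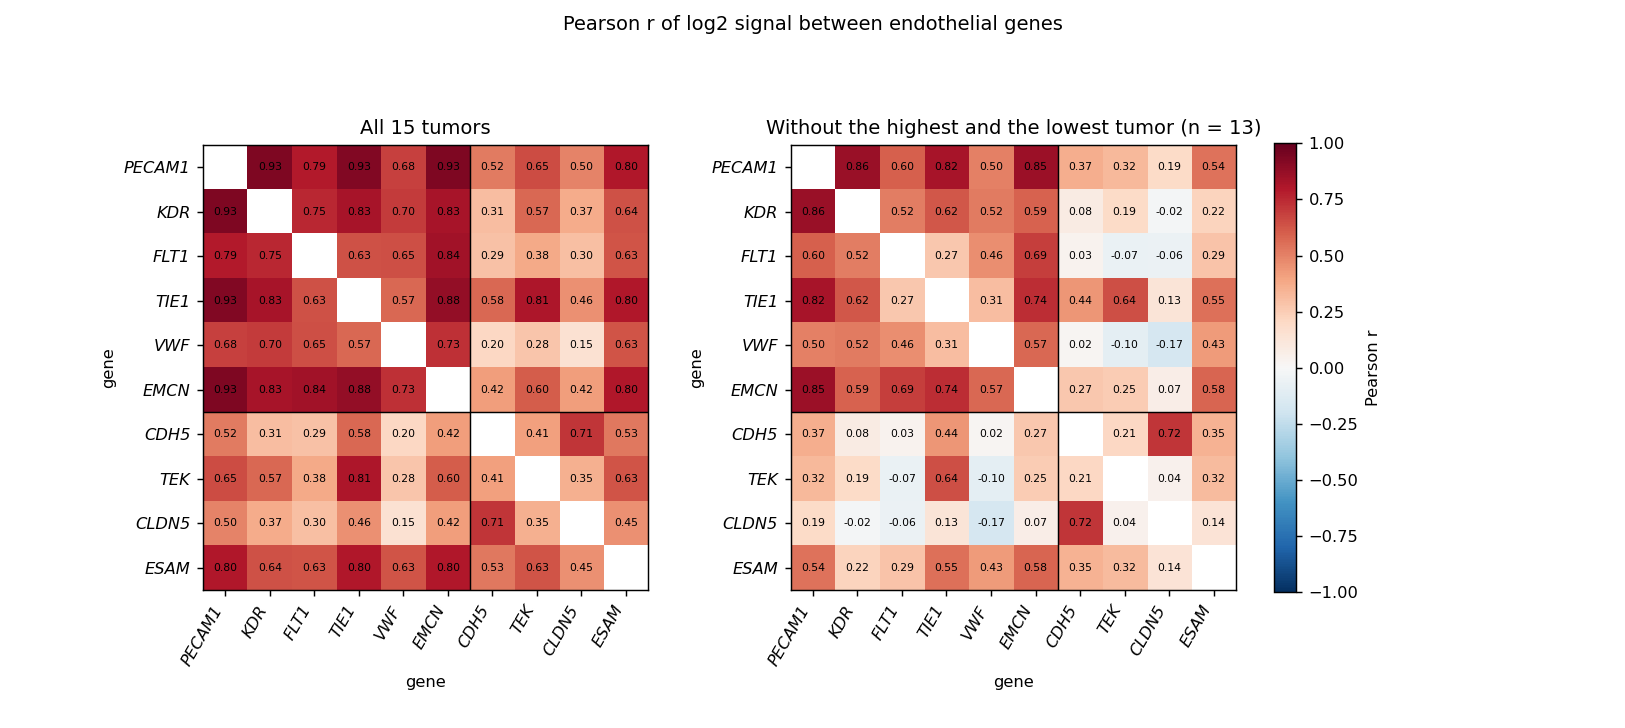
Pearson's r of log2 signal between the brightest probesets of the 10 genes over all 15 tumors (left) and over the 13 that remain without DFI < 100 dog 6 and DFI > 300 dog 7 (right), with black lines between the 6 genes above the reporter level and the 4 under it. The block of PECAM1, KDR, TIE1 and EMCN stays dark on the right, with PECAM1 at 0.82 to 0.86, while the rows of CDH5, TEK and CLDN5 are mostly pale.

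Where a gene had several probesets, they ran in parallel for the brighter genes. The 4 probesets of PECAM1 correlated at r = 0.90 to 0.99, the 3 of FLT1 at 0.83 to 0.99, those of EMCN at 0.98 and those of TIE1 at 0.95. The 4 probesets of CDH5 ran from r = -0.0004 to 0.75 among themselves, so the array gives no settled profile for this cadherin. The dimmer probeset of CLDN5 varied from 3.02 to 7.78 and correlated at r = 0.83 with the scaled mean of the 6 genes, against 0.41 for the brighter one, which varied only from 6.03 to 6.86. That dimmer probeset was also higher in the giant cell tumors, by 1.71 (SE 0.73), against 0.13 (SE 0.22) for the brighter. Probesets 3 and 4 of CDH5, by brightness, had r = 0.63 and 0.54 with the 6 genes, against 0.43 for the brightest and 0.10 for the second.

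The genes most like the endothelial profile were sought among the 6442 other genes above the reporter level, by Pearson's r with the scaled mean of the 6 genes over the 15 tumors. These r values are a description, and the 6 genes themselves had r of 0.80 (VWF) to 0.97 (PECAM1) with the mean they helped to make. The nearest were the receptor tyrosine phosphatase PTPRR (0.96), TM4SF18 (0.94), the basement membrane collagen COL4A1 (0.93), the endothelial surface protein ECSCR (0.93), and CD34 (0.92), an antigen of vessels and blood progenitors. They were followed by the tetraspanin TSPAN13 (0.90), the phosphatase PTPN9 (0.89), the cAMP responsive factor CREM (0.88), LACTB (0.88) and the matrix protein SPARCL1 (0.87). COL4A1 kept r = 0.93 and CD34 r = 0.91 without DFI < 100 dog 6, while SPARCL1 had 0.77. Of these 10, ECSCR and CD34 were on the list of other endothelial markers. The remaining genes of that list above the reporter level had lower r, from 0.76 down to -0.01. Among them, ELK3 had 0.42, and 0.09 without DFI < 100 dog 6. At the opposite end were FBXO31 (-0.89), RCAN3 (-0.86), the mitotic protein TROAP (-0.85), the mevalonate pathway enzyme MVD (-0.83) and the ribosomal protein RPL13 (-0.81).

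A second list of 28 endothelial genes had 24 measured and 11 above the reporter level, and its mean log2 signal followed the 6 genes with r = 0.89 over the 15 tumors. DFI < 100 dog 6 was again highest, at 7.71, and DFI > 300 dog 7 was second lowest, at 6.10. In the cohort comparison, 8 of the 24 averaged higher and 16 lower in the DFI < 100 cohort (median -0.18), and 1 had an unadjusted p under 0.05, a share close to the 3.68% of the array. That gene was EPAS1, the hypoxia inducible factor HIF-2alpha, at 6.49 ± 0.49 in DFI < 100 tumors and 7.36 ± 0.84 in DFI > 300 tumors (-0.87, SE 0.34, adjusted p = 0.999 in limma). RAMP2, a subunit of the adrenomedullin receptor, differed by -0.41 (SE 0.28), ELK3 by 0.22 (SE 0.20) and EGFL7 by -0.29 (SE 0.35). In the giant cell tumors, 20 of the 24 averaged higher than in the osteoblastic tumors (median 0.58), against 44.8% of all probesets, and 3 had an unadjusted p under 0.05, where 6.90% of the array did.

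The mean log2 signal of the 6 ligands of the receptors had r = 0.75 with the 6 genes over the 15 tumors, and r = 0.65 without DFI < 100 dog 6. It was highest in that dog by a narrow margin, at 8.770 against 8.765 in DFI > 300 dog 2. For the 4 ligands above the reporter level r was 0.59, and DFI < 100 dog 6 ranked 3 of the 15 tumors. In the DFI < 100 cohort 1 ligand averaged higher and 5 lower (median -0.11, none with an unadjusted p under 0.05), and in the giant cell tumors 5 of the 6 averaged higher (median 0.38, 1 with an unadjusted p under 0.05). Single ligands differed. VEGFA, the main ligand of KDR and FLT1, had r = -0.04 with the scaled mean of the 6 genes and VEGFB, a ligand of FLT1, 0.14, whereas VEGFC, best known for lymphatic vessels and also a KDR ligand, had 0.80. VEGFC had 8.62, 8.90 and 9.96 in the giant cell tumors and 6.43, 7.58, 7.76, 7.81 and 7.96 in the osteoblastic tumors of the DFI < 100 cohort. These values did not overlap, with a difference of 1.65 (SE 0.44, unadjusted p = 0.00533, adjusted p = 0.586 in limma). How often genes of the array separate in this way was not counted. Outside that cohort, VEGFC was 9.52 in osteoblastic DFI > 300 dog 2 and 9.59 in poorly differentiated DFI > 300 dog 4. Both values lay above those of giant cell dogs 1 and 4 of the DFI < 100 cohort. Between giant cell and osteoblastic tumors of the DFI < 100 cohort, VEGFA differed by -0.85 (SE 0.64) and the FLT1 ligand PGF by 0.57 (SE 0.38). Of the 14 genes of vessel signaling, 6 averaged higher and 8 lower in the DFI < 100 cohort (median -0.04), and none had an unadjusted p under 0.05. Among them the vasoactive peptide ADM differed by 0.97 (SE 0.76), the Notch ligand JAG1 by 0.15 (SE 0.17), HIF1A by -0.13 (SE 0.17) and the VEGF co-receptor NRP1 by -0.09 (SE 0.23).

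Other cell types followed the endothelial genes to different degrees over the 15 tumors. The mean log2 signal of the pericyte list, the cells that wrap capillaries, had r = 0.82 with the 6 genes, but only 2 of its 7 genes, PDGFRB and MCAM, were above the reporter level, and their mean had r = 0.50. The lymphatic list, with 1 gene of 4 above the reporter level, had r = 0.72, and 0.57 without DFI < 100 dog 6. The osteoclast list had r = 0.65 and the leukocyte list 0.60. Smooth muscle had r = 0.19, platelet genes, which share VWF with endothelium, 0.08, and osteoblast genes -0.19. Fat and skeletal muscle had r = -0.08 and -0.29, which became 0.11 and 0.36 without DFI < 100 dog 6, so that tumor set their sign. Of the 3 genes measured in each of the platelet, skeletal muscle and fat lists, 1, 1 and 0 were above the reporter level. The r of these lists thus rests mostly on genes close to background. The red cell list had only 1 gene measured, ALAS2. The osteoclast markers were lowest in the same tumor as PECAM1 and KDR: their summed signal was 914.5 in DFI > 300 dog 7 and 20467, the highest, in DFI < 100 dog 6. PROX1, the transcription factor that defines lymphatic endothelium, had a mean of 1.75, far under the reporter level. The log2 3' to 5' ratio had r = 0.15 with the endothelial genes, the median signal of the array -0.23 and age 0.09.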

How the data were processed

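Total RNA of 15 snap frozen canine osteosarcomas was hybridized to Affymetrix Canine 2.0 arrays, 1 per dog. The deposited values are intensities: the authors used Affymetrix Expression Console and PLIER, with no version named, to get 1 signal per probeset, after RNA was selected for integrity and 1 sample was removed on pathology review. Earlier normalization and array batch were not given in the sources used here. The qRT-PCR and RMA data were not used. Cohorts, breed and age came from the sample labels, and subtype and bone from the study's table of dogs by dog number.

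From these, 175 of 43035 probesets (controls) were left out and log2 was taken with no offset. Linear models were fitted to 42860 probesets with limma 3.58.1 in R 4.3.3, with p adjusted by Benjamini-Hochberg over all of them. Cohort was fitted alone, giant cell minus osteoblastic within DFI < 100, and limb, segment and the cohort by limb interaction over all tumors with cohort. Correlations used scipy 1.17.1. Gene names came from the platform annotation, with 29254 probesets of 1 symbol, 439 of several and 13167 of none. The platform's gene ID of CLDN5 is not in the RefSeq table used, and the other 9 IDs carry the same symbol there. Named genes were all members, up to 4 genes per related list by cohort p above the reporter level, and the 10 nearest and 5 farthest genes, and CALCR, PROX1 and ALAS2, each within its list, were named after their values were seen. The members and lists were chosen with earlier results of these data known. The cohort fit was tested on residuals of these arrays, shuffled between tumors, with known differences added. The number of arrays limits the precision. Alternatives were quantile normalization, an offset of 16, a filter at the median probeset, trended and robust eBayes, a gene's probesets averaged, age or limb as covariate, no Greyhounds, osteoblastic tumors only, no cohort term, the methods' t-test, and each tumor left out.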

Additional observations from a re-analysis of the deposited data

Results flagged for a closer look

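In 20 groups (10 genes in 2 cohorts), the gap of the highest and the lowest tumor to its neighbor was divided by the group's range, and 5 exceeded Dixon's critical value (0.526 for 8 tumors, 0.568 for 7). Chance exceeds it in about 1 of 20 groups, and the 10 genes are not independent. DFI < 100 dog 6 stood far above the rest of its cohort in PECAM1 (gap over range 0.539, at 11.49 with the next tumor at 9.51) and in KDR (0.547, at 11.15 with the next at 9.80). DFI > 300 dog 7 stood far under the rest of its cohort in TIE1 (0.666, at 5.30 with the next at 6.84), in EMCN (0.632, at 7.39 with the next at 8.61) and in ESAM (0.713, at 3.64 with the next at 5.14).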

How the results depend on the processing

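In every alternative run, 0 of the 21 probesets had an adjusted p under 0.05 in the cohort, subtype, limb and segment comparisons, and the smallest for a named gene was 0.436 (KDR, giant cell against osteoblastic). The cohort differences of the 10 genes were smaller than their SE. EMCN kept its sign in all 25 alternatives (-0.74 to -0.11), and each of the other 9 genes changed sign in at least 1. The methods' t-test, trended and robust eBayes and the filter at the median probeset leave a gene's difference unchanged. These alternatives could not change a sign. With age as a covariate, FLT1 was 0.0288, TEK 0.0053, TIE1 0.0743, VWF -0.0453 and CLDN5 0.0073. Without the Greyhounds, CDH5 was -0.0682, KDR -0.0898 and VWF -0.1651. In osteoblastic tumors alone these were -0.1244, -0.2678 and -0.2798, and with limb as a covariate -0.0134, -0.0178 and -0.0391. With each tumor left out in turn, the cohort difference ran from -0.1239 to 0.1269 for CDH5, -0.2957 to 0.1097 for ESAM, -0.1999 to 0.1526 for KDR, -0.1607 to 0.3124 for VWF, -0.5123 to 0.0119 for PECAM1, -0.2966 to 0.0309 for TEK, -0.3603 to 0.1248 for TIE1 and -0.3826 to 0.1147 for FLT1. The segment difference of FLT1 ran from -0.3711 to 0.0267.

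The higher mean of the 10 genes in giant cell tumors kept its direction in all 16 alternatives (median 0.44 to 1.37), with leave-one-out ranges of -0.0553 to 0.334 for CLDN5 and -0.141 to 0.9197 for ESAM. Some of the 16 could not change the direction, because they leave a gene's difference unchanged. These were trended and robust eBayes, the filter at the median probeset, and all tumors with cohort as a covariate. The count of probesets with an unadjusted p under 0.05 was 5, and became 8 with trended and robust eBayes, 10 with age as a covariate, 3 without the Greyhounds and 9 with all tumors and cohort as a covariate. It was 2 when DFI < 100 dog 5, 6, 7 or 8 was left out, and 10 without dog 1. The share over the array was 4.83% to 8.52% in these fits. In the cohort comparison that count was 0, and 1 in osteoblastic tumors alone and without DFI < 100 dog 6. Of the 45 correlations, 5 passed within the DFI < 100 cohort and 8 within the DFI > 300 cohort, where fewer tumors enter, and 14 (without DFI < 100 dog 6) to 30 (without DFI > 300 dog 3) with a tumor left out. Without both DFI < 100 dog 6 and DFI > 300 dog 7, an alternative chosen after seeing the data, 4 passed and the median r of the 45 was 0.3226. Averaging the probesets of each gene gave 39. The cause of these changes was not tested unless stated.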
